A study of Mus musculus with 6 samples.

Results

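The 9 genes described here, Emx1, Emx2, Lhx5, Nkx2-1, Dmbx1, Barhl2, Otx1, Fezf1 and Fezf2, encode transcription factors that mark regions of the early forebrain and midbrain. They were taken by name from the 19938 gene symbols that the platform annotation of the Affymetrix mouse Gene 1.0 ST array pairs with a probe set of their own, and each of the 9 has a single such probe set. Of these factors, 7 carry a homeodomain, while Fezf1 and Fezf2 are zinc finger proteins, so the set is regional rather than homeobox only. RNA came from head regions of C57BL/6 mouse embryos at embryonic day 8.5 (E8.5), with 4 heads per pool. There were 3 pools of Jarid1b heterozygotes, which served as the controls and keep a single intact allele, and 3 pools of Jarid1b knockouts. Both genotypes descend from crosses of mice with a conditional Jarid1b allele, in which loxP sites flank exon 6, to Cmv-cre transgenic mice, so that the deletion was constitutive and not limited to the brain. No wild-type pool was analysed here. Jarid1b (Kdm5b) removes methyl groups from lysine 4 of histone H3, and the comparison asks whether its loss altered transcript levels of these developmental regulators in the early head.

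At this stage the anterior neural plate is closing and is being divided into telencephalon, diencephalon and midbrain. Transcription factors with restricted domains carry out this division by activating programs of their own region and repressing those of neighboring regions. Many such genes are held in a silent or poised state outside their domain, with CpG-rich promoters that can bear both active and repressive histone marks. In RNA from pooled head regions, fewer cells of a region and less RNA per cell cannot be told apart.

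CpG dinucleotides are the DNA feature that methylation of histone H3 lysine 4 at promoters is known to accompany, and they were therefore counted in the 250 bases before each annotated start site. RefSeq promoters on the mouse build GRCm38.p6 were found for 7 of the 9 genes, all but Lhx5 and Otx1. They held between 9 CpGs (Nkx2-1) and 36 CpGs (Barhl2), with a median of 23, against a median of 6 over the 32851 promoters of the table. All 7 lay above that median. The sequence of Fezf1 is shown because it was the member whose knockout and heterozygote pools did not overlap. Fezf2 is shown as its paralog, and Barhl2 because it had the largest difference in means. Each is printed 5′ to 3′ on the strand of the gene, with CpGs in capitals.
Fezf1: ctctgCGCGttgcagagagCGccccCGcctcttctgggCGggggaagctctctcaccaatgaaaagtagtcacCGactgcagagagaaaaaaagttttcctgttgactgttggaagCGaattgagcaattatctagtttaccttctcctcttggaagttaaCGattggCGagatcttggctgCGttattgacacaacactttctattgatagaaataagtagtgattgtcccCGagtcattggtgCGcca
Fezf2: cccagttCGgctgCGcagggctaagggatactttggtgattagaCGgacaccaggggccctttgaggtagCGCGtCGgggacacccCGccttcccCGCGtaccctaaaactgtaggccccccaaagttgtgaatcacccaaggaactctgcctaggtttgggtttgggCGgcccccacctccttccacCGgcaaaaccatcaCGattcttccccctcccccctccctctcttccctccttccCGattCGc
Barhl2: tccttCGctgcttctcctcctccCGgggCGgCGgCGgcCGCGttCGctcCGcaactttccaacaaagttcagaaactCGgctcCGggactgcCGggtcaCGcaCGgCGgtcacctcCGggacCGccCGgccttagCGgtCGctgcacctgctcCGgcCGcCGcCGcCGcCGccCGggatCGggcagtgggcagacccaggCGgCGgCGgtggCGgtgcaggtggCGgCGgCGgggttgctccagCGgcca
The Fezf1 sequence lies on the minus strand at chr6:23248265-23248514 and holds 12 CpGs, a number reached by 33.5% of all promoters in the table. Fezf2, on the minus strand at chr14:12345866-12346115, holds 14 CpGs, which 29.4% of promoters reach. Barhl2, on the minus strand at chr5:106458167-106458416, holds 36 CpGs, which 2.58% of promoters reach. Emx1 and Emx2 held 30 and 24 CpGs, and Dmbx1 held 23. The homeodomain core TAATTA, which reads the same on both strands and does not overlap CG, occurred in none of the 7 windows and in 4.84% of all promoters of this length. 

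In the comparison of knockout with heterozygote pools, 0 of the 9 factors had an adjusted p below 0.05 (limma, Benjamini-Hochberg), where 0.00459% of all 21789 tested probe sets were called. That single probe set was the one of Jarid1b itself, at log2 intensities of 9.12 to 9.17 in heterozygotes and 7.47 to 7.71 in knockouts. At an unadjusted p under 0.05, 1 of the 9 was lower in knockouts, Fezf1, where the background was 4.66%, and 0 of the 9 were higher, where the background was 5.97%. Which of these backgrounds is larger depends on the settings. The 9 log2 fold changes ran from -0.18 for Fezf1 to 0.22 for Barhl2. Of the 9, 4 were positive and 5 negative, where 50.3% of all tested probe sets were negative, with a median of -0.020, beside a median of -0.00072 over all tested probe sets. The adjusted p-values in limma ranged from 0.43 to 0.92. The 95% confidence intervals, whose ends are given as bounds for each gene and which are not adjusted for the number of genes, lay inside a 1.5-fold change in either direction for all 9 genes, and inside a 1.3-fold change for 8 of them, all but Barhl2. They bound changes in intensity, which carries a background level, so that changes in RNA could be larger. Every knockout pool was lower than every heterozygote pool for 1 of the 9, where the background was 9.03%, and higher for 0 of the 9, where it was 8.03%. The pools are described by the study as biological replicates. Whether pools shared litters is not given in the labels, so that p-values reflect only how far these pools varied.

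**Figure D1:**
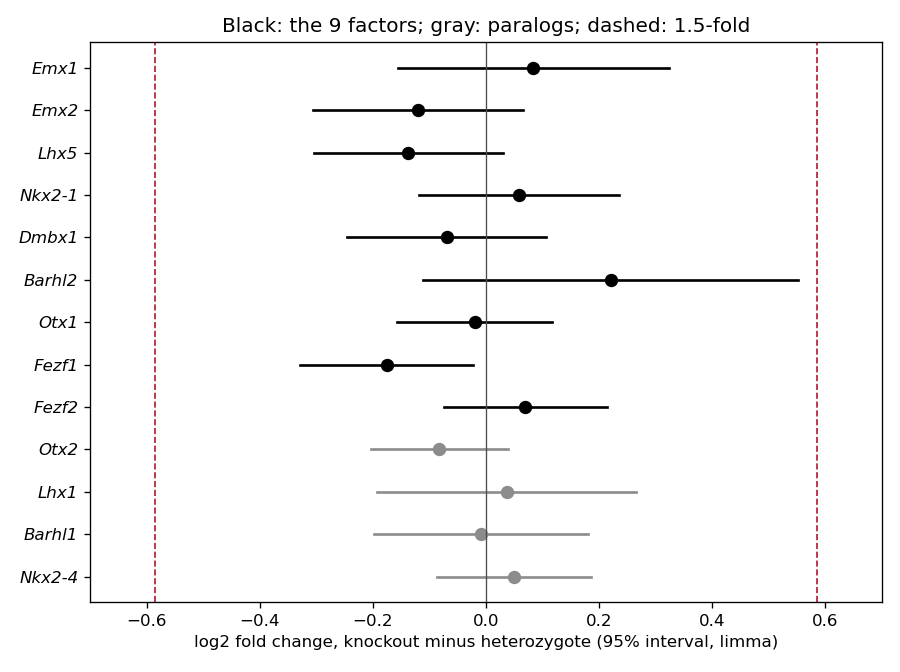
Log2 fold change, knockout minus heterozygote, of the 9 regional factors (black) and 4 paralogs (gray), with 95% confidence intervals (limma, 3 pools per genotype) as horizontal lines and dashed lines at a 1.5-fold change. Fezf1 at -0.18 is the member whose interval lies off 0, and Barhl2 at 0.22 has the widest interval.

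Some pools stood apart in marker genes of other tissues or of neural ectoderm, and the values of each factor without single pools are therefore given with it. The summed intensity of 7 primitive blood genes, on the log2 scale, was 8.51 to 8.85 in heterozygotes and 8.84 to 10.92 in knockouts, highest in knockout replicate 2. Such a sum follows its brightest genes, and in that pool not all 7 lay above their heterozygote values. The summed log2 intensity of 9 yolk sac visceral endoderm genes was 12.85 to 13.10 in heterozygotes and 11.91 to 13.09 in knockouts, lowest in knockout replicate 3. For 10 heart genes it was 13.76 to 13.87 in heterozygotes and 13.77 to 13.83 in knockouts, so heart genes were bright in all pools. At an unadjusted p under 0.05 (limma), 3 of the 10 were lower and 0 higher, against backgrounds of 4.66% and 5.97%. The Y-linked genes Uty, Kdm5d and Eif2s3y had a mean log2 intensity of 6.24 and 6.16 in heterozygote replicates 1 and 3, 7.97 in heterozygote replicate 2 and 7.52 to 7.94 in knockouts. The X-linked gene Xist had log2 intensities of 10.17, 4.22 and 10.08 in heterozygote replicates 1 to 3 and of 8.82, 3.74 and 8.91 in knockout replicates 1 to 3. The pools thus differed in the sex of their embryos within each genotype. Of 12 neural ectoderm markers, whose defining genes Sox2, Sox1 and Sox3 had mean log2 intensities between 6.53 and 9.28 in heterozygotes, 5 had an unadjusted p under 0.05 and a higher knockout mean (background 5.97%), and 0 a lower one (background 4.66%). Their summed log2 intensity was 11.98 to 12.09 in heterozygotes and 12.04 to 12.09 in knockouts. Their median deviation from the mean of the 6 pools ran from -0.078 in heterozygote replicate 1 to 0.14 in knockout replicate 3. No marker is listed at 0, since these values carry a background level.

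Fezf1 and Fezf2 are zinc finger repressors of the most anterior neural plate, where they set forebrain identity and later act in the olfactory system (Fezf1) and in deep-layer cortical projection neurons (Fezf2). Fezf1 had log2 intensities of 8.82, 9.02 and 8.89 in heterozygote replicates 1 to 3 and of 8.69, 8.77 and 8.75 in knockout replicates 1 to 3. Each knockout pool was below each heterozygote pool, and the highest knockout lay 0.054 under the lowest heterozygote. Its log2 fold change was -0.18, an 11.4% lower knockout mean, with SE 0.066 and 95% bounds of -0.33 and -0.023 (limma, unadjusted p = 0.029, adjusted p = 0.43). Among the 7263 brightest probe sets, to which Fezf1 belongs, every knockout pool was lower for 16.8%. The 7263 brightest probe sets had a median log2 fold change of -0.035. After quantile normalization between arrays the log2 fold change of Fezf1 was -0.13 (limma, unadjusted p = 0.079), and after cyclic loess it was -0.13 (limma, unadjusted p = 0.069). Heterozygote replicate 2 held the highest value, and without it the log2 fold change was -0.12 (limma, unadjusted p = 0.107). With the mean of the Y-linked genes as a covariate, an analysis chosen after seeing the data, it was -0.26 (limma, unadjusted p = 0.0092, adjusted p = 0.57). That mean was 7.52 to 7.94 in knockouts and 6.24 and 6.16 in heterozygote replicates 1 and 3. Only heterozygote replicate 2, at 7.97, was as high as the knockouts. The covariate therefore largely follows genotype, its fit leans on that pool, and the smaller p does not strengthen the difference. The summed log2 intensity of 11 surface ectoderm genes was 13.07 to 13.09 in heterozygotes and 12.84 to 12.98 in knockouts, and at an unadjusted p under 0.05, 3 of the 11 were lower and 0 higher, against backgrounds of 4.66% and 5.97%. Of the 11, 7 lie among the 7263 brightest probe sets, of which 487 were lower and 52 higher at that p. The summed log2 intensity of 8 caudal embryo genes was 8.37 to 8.44 in heterozygotes and 8.52 to 8.53 in knockouts. At that p, 3 of the 8 were higher and 0 lower, against backgrounds of 5.97% and 4.66%. Of the 8, 3 lie among the 7263 dimmest probe sets, of which 761 were higher and 114 lower at that p. The other 5 lie among the 7263 of middle intensity, of which 488 were higher and 415 lower. The part of either tissue in the Fezf1 values was not tested.
Fezf2 had log2 intensities of 6.50, 6.45 and 6.42 in heterozygotes and 6.49, 6.47 and 6.63 in knockouts. The groups overlapped, since only knockout replicate 3 lay above all heterozygotes. The difference was 0.070 on the log2 scale, with bounds of -0.075 and 0.21 (limma, adjusted p = 0.72), and it was 0.020 without knockout replicate 3.

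**Figure D2:**
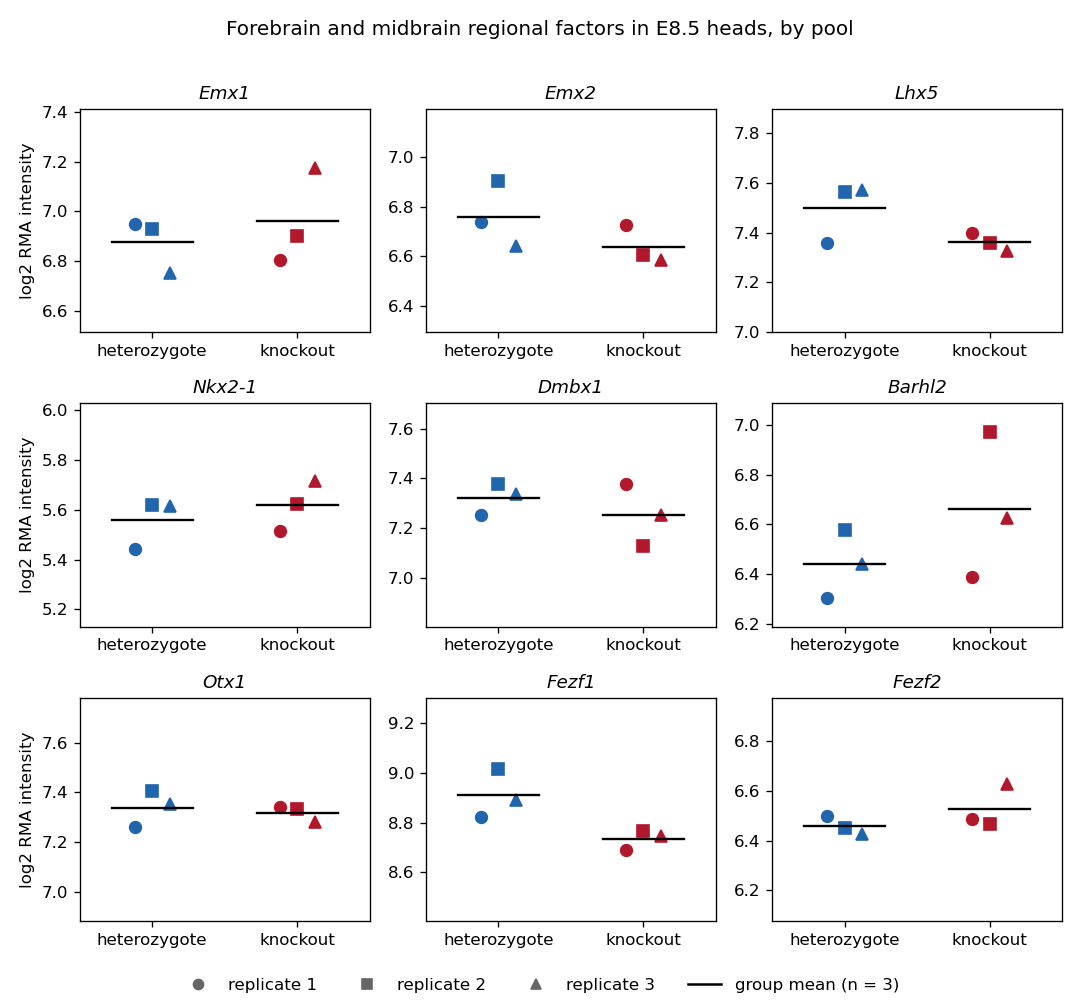
Log2 RMA intensity of the 9 factors in each pool, with heterozygotes in blue, knockouts in red, a symbol for each replicate number and a horizontal bar for the average of each genotype (n = 3); every panel spans the same length on the log2 scale. All knockout points of Fezf1 sit below its heterozygote points, and Barhl2 reaches 6.97 in knockout replicate 2.

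Emx1 and Emx2, homologs of the fly gene empty spiracles, pattern the dorsal telencephalon, and Emx2 is the one required early for growth of the medial cortex and hippocampus. Emx2 had log2 intensities of 6.74, 6.90 and 6.64 in heterozygotes and 6.73, 6.60 and 6.59 in knockouts. Heterozygote replicate 2 stood highest, and 2 knockout pools lay below all heterozygotes. The difference in means was -0.12 on the log2 scale, with SE 0.080 and bounds of -0.31 and 0.065 (limma, adjusted p = 0.61), and it was -0.049 without heterozygote replicate 2. With the Y-linked covariate, which largely follows genotype and leans on heterozygote replicate 2, it was -0.22 (limma, unadjusted p = 0.038, adjusted p = 0.60). Emx1 had log2 intensities of 6.95, 6.93 and 6.75 in heterozygotes and 6.81, 6.90 and 7.17 in knockouts. Only knockout replicate 3 lay above the heterozygotes. That pool had low visceral endoderm genes and the highest median deviation of the neural ectoderm markers. The part of either in the Emx1 values was not tested. The log2 fold change of 0.084, with bounds of -0.16 and 0.32 (limma, adjusted p = 0.80), was -0.023 without that pool.

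Nkx2-1 specifies the ventral forebrain, where it marks the hypothalamus and the medial ganglionic eminence, and it is also a factor of lung and thyroid. Its log2 intensities were 5.44, 5.62 and 5.61 in heterozygotes and 5.51, 5.62 and 5.72 in knockouts. These ranges overlapped over most of their length, and replicate 1 of each genotype was the lower end of its group. Nkx2-1 had a log2 fold change of 0.059, with bounds of -0.12 and 0.24 (limma, adjusted p = 0.81), and it was 0.0012 without heterozygote replicate 1. On the linear scale its pools lay at 43.5 to 52.5, below the median of every array (58.1 to 62.9). Background may therefore make up much of these values, and the bounds do not limit a change in its RNA.

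Lhx5 and Barhl2 are factors of the diencephalon. Lhx5, a LIM homeodomain protein, promotes forebrain development from the anterior neural plate onward and later marks hypothalamus and hippocampal Cajal-Retzius cells. Its log2 intensities were 7.36, 7.57 and 7.57 in heterozygotes and 7.40, 7.36 and 7.33 in knockouts. Heterozygote replicate 1 lay within the knockout range, and the other heterozygote pools lay above every knockout. Its log2 fold change was -0.14, with SE 0.072 and bounds of -0.30 and 0.029 (limma, unadjusted p = 0.094, adjusted p = 0.53). Without heterozygote replicate 1 it was -0.21 (limma, unadjusted p = 0.013, adjusted p = 0.52), the only 1 of 17 other settings with an unadjusted p under 0.05. It was -0.10 without heterozygote replicate 2 and -0.10 without heterozygote replicate 3 (limma, unadjusted p = 0.25 and 0.26). After quantile normalization it was -0.099 and after cyclic loess -0.11 (limma, unadjusted p = 0.18 and 0.15). Barhl2, a homolog of fly BarH, acts in the caudal diencephalon and in retinal amacrine and ganglion cells. Its log2 intensities were 6.31, 6.58 and 6.44 in heterozygotes and 6.39, 6.97 and 6.63 in knockouts. Knockout replicate 2 stood 0.35 above the next pool, while knockout replicate 1 was within the heterozygote range. The difference of 0.22 on the log2 scale is a 16.5% higher knockout mean, with SE 0.14 and bounds of -0.11 and 0.55 (limma, unadjusted p = 0.16, adjusted p = 0.60). It was 0.066 without knockout replicate 2 and 0.36 without knockout replicate 1 (limma, unadjusted p = 0.56 and 0.027), and with the Y-linked covariate it was 0.078. Knockout replicate 2 was also the pool with the highest blood sum, 10.92 against 8.51 to 9.26 in the others, though not every listed blood gene was raised there. Within each genotype, Barhl2 was highest in replicate 2, the pool with the lowest Xist. The part of blood RNA or of embryo sex in the Barhl2 values was not tested.

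Otx1 and Dmbx1 belong to the paired-like homeodomain factors. Otx1 shares with Otx2 the specification of forebrain and midbrain territory and the position of their border with the hindbrain, and Dmbx1 marks the midbrain primordium. Otx1 had log2 intensities of 7.26, 7.40 and 7.35 in heterozygotes and 7.34, 7.33 and 7.28 in knockouts. All knockout values fell between the lowest and the highest heterozygote. Otx1 had a log2 fold change of -0.020, with bounds of -0.16 and 0.12 (limma, adjusted p = 0.92), and its sign was positive after quantile normalization, after cyclic loess and without heterozygote replicate 2. Dmbx1 had log2 intensities of 7.25, 7.38 and 7.33 in heterozygotes and 7.38, 7.13 and 7.25 in knockouts. Knockout replicate 2 was the lowest pool and knockout replicate 1 level with the highest heterozygote. Dmbx1 had a log2 fold change of -0.070, with bounds of -0.25 and 0.11 (limma, adjusted p = 0.77), and it was -0.0068 without knockout replicate 2.

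**Figure D3:**
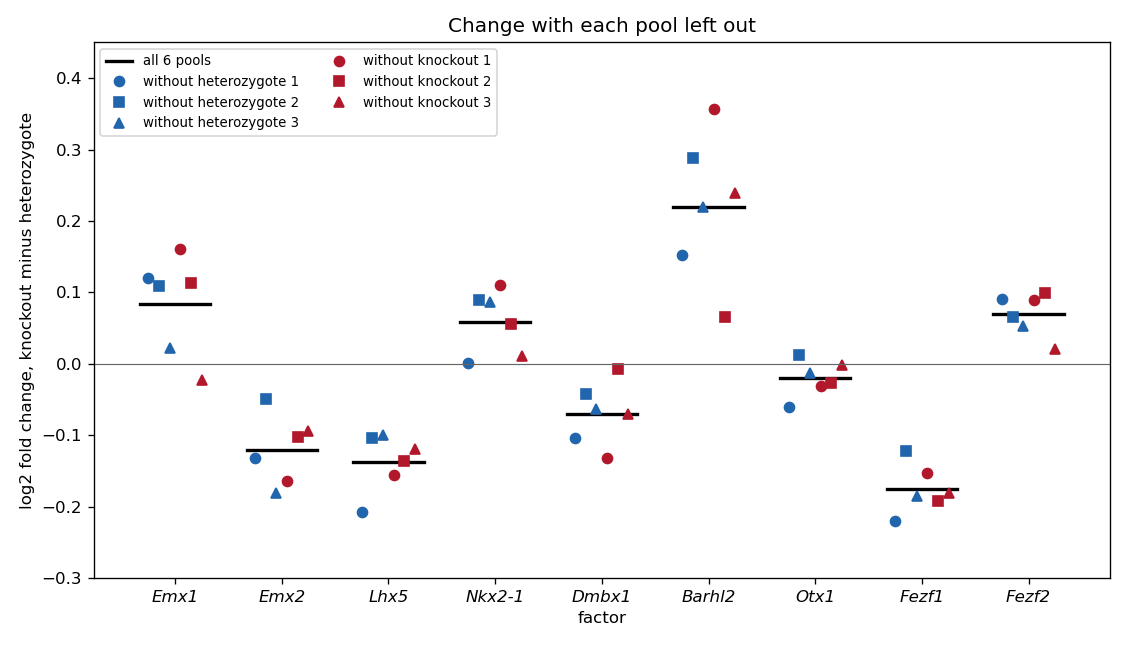
Difference of log2 means, knockout minus heterozygote, for each factor with all 6 pools (black line) and with each pool left out in turn (blue symbols for heterozygote pools, red for knockout pools). Barhl2 runs from 0.066 without knockout replicate 2 to 0.36 without knockout replicate 1, and Fezf1 stays between -0.22 and -0.12.

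For 6 pairs of paralogs, the difference between their log2 fold changes was tested by an exact permutation test over the 20 splits of the pools, two-sided, which cannot give a p below 0.1. Fezf1 minus Fezf2 gave -0.25 and reached that smallest value (exact permutation p = 0.1, adjusted p = 0.30 over the 6 pairs), with within-pool differences that did not overlap between genotypes. Lhx5 minus Lhx1, a LIM homeodomain paralog of the head organizer, gave -0.17 and also reached it (exact permutation p = 0.1, adjusted p = 0.30). Both differences shrank under normalization between arrays, to -0.20 and -0.086 after quantile normalization (exact permutation p = 0.2 and 0.5). Emx1 minus Emx2 gave 0.20, Barhl2 minus Barhl1 gave 0.23 and Otx1 minus Otx2 gave 0.062 (exact permutation p = 0.3 for each, adjusted p = 0.36). Nkx2-1 minus Nkx2-4 gave 0.0095 (exact permutation p = 0.9). Among the paralogs themselves, Otx2 had log2 intensities of 9.94, 9.97 and 10.00 in heterozygotes and 9.93, 9.89 and 9.85 in knockouts. It was lower in every knockout pool, with a log2 fold change of -0.082 (limma, adjusted p = 0.60). Among the 7263 brightest probe sets, to which Otx2 belongs, every knockout pool was lower for 16.8%, and the median log2 fold change was -0.035. Lhx1 at 0.036, Barhl1 at -0.0092 and Nkx2-4 at 0.049 had overlapping groups.

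The pools differed among themselves in how the 9 factors lay around their own means. In heterozygote replicate 2, 8 of the 9 lay above their mean over the 6 pools, with a median deviation of 0.075 on the log2 scale, and 4 had their highest value there (Emx2, Dmbx1, Otx1 and Fezf1). In heterozygote replicate 1, 3 of the 9 lay above and 3 had their lowest value there (Nkx2-1, Barhl2 and Otx1). The knockout pools had medians between -0.034 and -0.025, with 3, 3 and 4 of the 9 above their mean, and heterozygote replicate 3 had a median of 0.025. In knockout replicate 3, 3 of the 9 had their highest value (Emx1, Nkx2-1 and Fezf2). The standard deviations among heterozygote pools ran from 0.038 (Fezf2) to 0.14 (Barhl2) and among knockout pools from 0.032 (Otx1) to 0.29 (Barhl2). Barhl2 was therefore the most variable of the 9 in both genotypes. The genes whose values over the 6 pools came nearest to those of Barhl2, by the root mean square difference of log2 values centred on their own mean, were Slc22a27 at 0.027, Mir452 at 0.040 and 5730507C01Rik at 0.064, out of 19937 genes searched. The first 2 of these lie among the 7263 dimmest probe sets, at log2 intensities of 2.39 to 3.12 and 3.28 to 3.90.

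**Figure D4:**
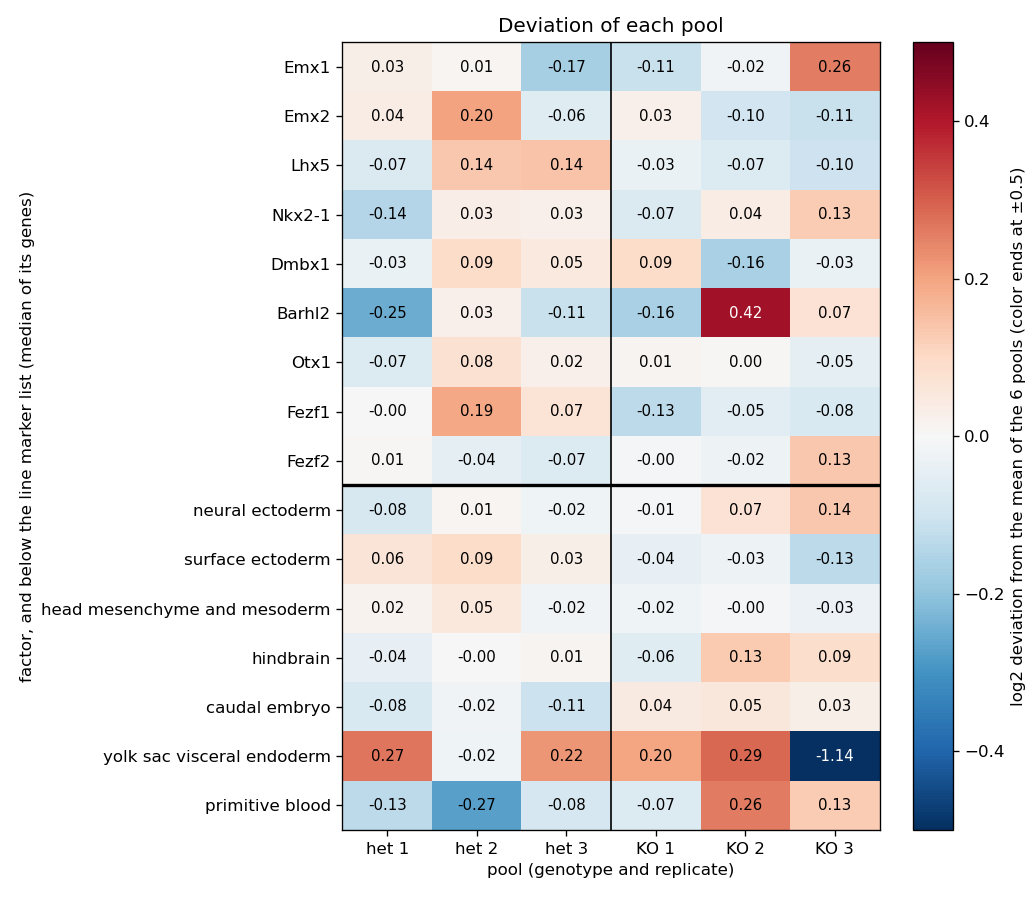
Deviation of each pool from the mean of the 6 pools on the log2 scale, for each of the 9 factors (above the line) and as the median over the genes of 7 marker lists (below the line), with heterozygote (het) pools on the left and knockout (KO) pools on the right. Barhl2 is at 0.42 in knockout replicate 2, where primitive blood is at 0.26, and yolk sac visceral endoderm is at -1.14 in knockout replicate 3.

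Change across the array depended on intensity, which bears on how the 9 values are read. The 7263 dimmest probe sets had a median log2 fold change of 0.056, the 7263 in the middle -0.00037 and the 7263 brightest -0.035. Fezf1 lies among the brightest and the other 8 factors in the middle group. In that middle group, the central 90% of log2 fold changes lay between -0.20 and 0.20, a span that holds 7 of the 8 factors and not Barhl2. Among the brightest probe sets this span was -0.17 to 0.080, with Fezf1 just outside it.

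**Figure D5:**
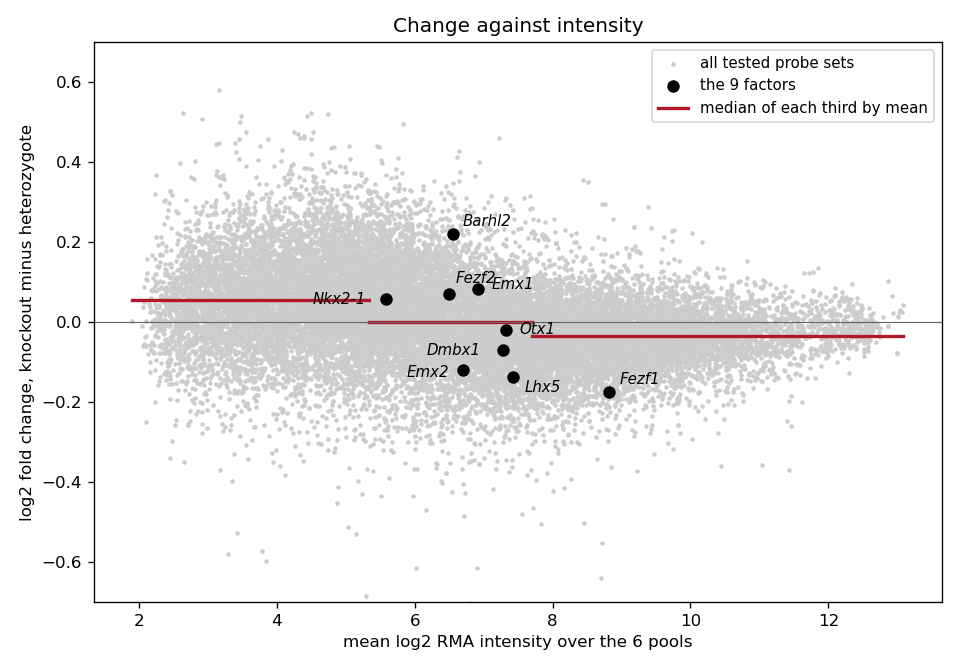
Log2 fold change, knockout minus heterozygote, against mean log2 RMA intensity over the 6 pools, for all tested probe sets (gray; 11 lie outside the plotted range) and the 9 factors (black), with red lines at the median of each of 3 equal groups of probe sets by intensity. The medians go from 0.056 on the left to -0.035 on the right, and the 9 factors lie between -0.18 and 0.22.

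Other genes that pattern the same regions were taken from lists of 26 forebrain and 19 midbrain and isthmus genes, of which Lhx1, Nkx2-4, Otx2 and Barhl1 are the paralogs above. Of the 24 forebrain genes measured, 0 had an adjusted p below 0.05 (limma), while 4 had a higher and 3 a lower knockout mean with an unadjusted p under 0.05, against backgrounds of 5.97% and 4.66%. Their median log2 fold change was 0.061. The lowest were Hesx1, a repressor of the anterior forebrain and pituitary, at -0.39, and Rax, a factor of the eye field and hypothalamus, at -0.20. Six3, which keeps the anterior forebrain free of Wnt signaling and was named after its value was seen, was the other gene on the lower side, at -0.17. Over the 24, the knockout values were all below the heterozygote ones for 4 genes and all above for 5, against backgrounds of 9.03% and 8.03%, with Hesx1, Rax and Six3 among the former and Dbx1 and Six6 among the latter. The highest were Dbx1, a factor of neural progenitor domains, at 0.28, and Six6, of the eye field and hypothalamus, at 0.27. Of the 18 midbrain and isthmus genes measured, 0 passed at the adjusted threshold in limma. At an unadjusted p under 0.05, 1 was higher and 0 were lower, against backgrounds of 5.97% and 4.66%. That gene was En2, which patterns the midbrain and cerebellum, at 0.37, followed by Pax5 at 0.18. The lowest were Foxa2, a floor plate factor, at -0.11, and Pax2, an early marker of the isthmus, at -0.11. The median of this list was 0.032. Over the 18, the knockout values were all above the heterozygote ones for 4 genes and all below for 1, against backgrounds of 8.03% and 9.03%.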

How the data were processed

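RNA of E8.5 mouse heads was hybridized to Affymetrix Gene 1.0 ST arrays, in 3 pools of Jarid1b heterozygotes and 3 of knockouts, 4 heads each. The deposited values are intensities that the authors made with RMA in Affymetrix Power Tools (version and genome build not given in the sources used here). They run from 2.53 to 11741 on a linear scale, with medians of 58.1 to 62.9 per array, and log2 was taken first. No detection call was used here, so a dim probe set cannot be called absent. Of 35556 rows, the 21789 that the platform annotation pairs with exactly 1 symbol were tested with limma 3.58.1 in R 4.3.3 (lmFit and eBayes, no covariate), which was first tested on simulated data, with Benjamini-Hochberg adjustment over all of them. The number of arrays limits the precision. The median standard error was 0.071 on the log2 scale. For a gene with several probe sets, that with the highest mean stood for it. The 9 genes and all lists were chosen with earlier results of these data known. Named beside the 9 were their paralogs, Kdm5b, the 2 highest and 2 lowest genes of each patterning list, the 3 nearest profiles and defining markers (the Sox and Y-linked genes and Xist). Six3 was added outside this rule. Levels were compared only within a probe set. Promoters came from RefSeq (GRCm38.p6) and gene coordinates were not used. Some genes of the lists are not reported here. Alternatives changed the filter, the rows, the normalization, the variance model, the block and the pools.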

Additional observations from a re-analysis of the deposited data

How the results depend on the processing

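Across 17 other settings, 4 of the 153 log2 fold changes of the 9 factors changed sign, and 0 of the 9 had an adjusted p below 0.05 (limma) under any of them. Emx1 ran from -0.023 to 0.16 when single pools were left out. Otx1 was at 0.022 after quantile normalization, at 0.0073 after cyclic loess and at 0.013 without heterozygote replicate 2 (from -0.060 to 0.013 when single pools were left out), and Emx1 was at -0.023 without knockout replicate 3. The count of factors lower at an unadjusted p under 0.05 was 0 after quantile normalization and 0 after cyclic loess, in place of 1. It was 2 with the Y-linked covariate, which was chosen after seeing the data and largely follows genotype. The median over the 9 was 0.012 after quantile normalization and -0.067 with that covariate. Leaving out 1 pool at a time gave 0 to 1 factors higher and 0 to 2 lower at an unadjusted p under 0.05. Over all 21789 probe sets, 1028 to 1383 were then higher and 619 to 1077 lower. Every remaining knockout pool was higher for 0 to 2 factors and lower for 1 to 3, and the median lay between -0.060 and 0.013. Groups with fewer pools separate more readily, and the share of all probe sets that did so was not counted with a pool left out. These non-overlap counts are therefore not a result about the 9. The causes were not tested. Over all probe sets, 1 was called at an adjusted p under 0.05 under each setting except without heterozygote replicate 2, where 2 were. With the replicate number as a block, 1 factor was higher at an unadjusted p under 0.05 (Barhl2) in place of 0, and the count over all probe sets was 1320 higher and 861 lower in place of 1301 and 1016. The balance of these counts turned to 650 higher and 1131 lower without the third of probe sets lowest in mean, 1055 and 1391 with limma's trend and robust options, 1140 and 1366 for log2 of the intensity plus 16, 895 and 900 after quantile normalization and 889 and 929 after cyclic loess. Nkx2-1 minus Nkx2-4 was -0.029 after quantile normalization, -0.019 after cyclic loess and between -0.039 and 0.081 when single pools were left out. No source used here says that the numbers pair the pools. Deviations of same-numbered pools correlated at 0.00076, 0.11 and -0.013 across probe sets, which are not independent replicates. Not every pool correlated best with its own number, though the value for replicate 2 was the highest between any heterozygote and knockout pool. With 3 pools per genotype, these correlations cannot show whether same-numbered pools share an origin. The other probe set of a factor could not be tried, since each has 1. With 3 pools per genotype, the bounds given for each factor mark only an unadjusted p of about 0.05. They are no limit of detection at an adjusted p. The bounds of Fezf1 lay off 0, yet its adjusted p was 0.43 (limma). Changes larger than the distance from an estimate to its bounds could therefore also be missed.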
